A study of Danio rerio with 4 samples.

Results

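The genes examined here build the contractile unit of muscle or specify the muscle lineage. They were chosen by gene symbol, with earlier results of these data known. The rule takes every probe set on a zebrafish expression array whose only symbol begins with one of a fixed series of muscle stems. The stems cover myosin heavy and light chains, troponins, tropomyosins, myosin binding proteins, sarcomeric actins, actinins, titin, nebulin, parvalbumins, creatine kinases and the myogenic factors. The rule took 74 of the 15617 probe sets, for 58 genes. It also takes relatives that work outside striated muscle, such as myh9a and actn1, and it misses the slow myosin smyhc1, which is described further on from a separate list. All samples were GFP-positive cells of AB strain Tg(cmyb:EGFP) zebrafish at 3 days of age, in which the cmyb promoter drives the reporter. Kidney-bearing tissue was dissected and dissociated with trypsin, and 20000 sorted cells went into each RNA extraction. One group came from embryos given a miR-34b morpholino (n = 2 arrays, called morphants below), the other from embryos given a control morpholino (n = 2 arrays, called controls). The labels call the cells multiciliated kidney cells. The series describes 2 independent biological sets, and nothing in the labels says how many embryos stand behind an array.

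In a sarcomere, myosin thick filaments slide along actin thin filaments, and calcium starts the movement by binding troponin, which shifts tropomyosin on the thin filament. Alpha-actinin and LIM-domain proteins anchor the thin filaments at the Z-disc, while titin and nebulin act as scaffolds. Zebrafish trunk muscle consists mainly of fast fibres with a thin layer of slow fibres, and the heart uses further isoforms of the same families. Myod1, myogenin, Myf5 and Myf6 are the transcription factors that commit cells to skeletal muscle and drive its differentiation.

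Values are log2 signals on the scale the authors deposited, with each array scaled to a common mean. A probe set's signal depends on its own probes, so it ranks probe sets by brightness and not transcripts by abundance. Differences are morphant minus control on the log2 scale, with standard errors (SE) from limma, whose p-values were adjusted over all 11626 probe sets tested by the Benjamini-Hochberg method (call threshold 0.05). Of the members, 59 probe sets for 53 genes were tested, 11 were too dim for the filter, and 4 were manufacturer's control probe sets for actc1b. With 2 arrays against 2, an exact permutation test of a single value cannot go below p = 0.333, so the p-values rest on the variance that limma shares across probe sets. The labelled cell type was represented: of 9 multiciliated cell markers with a probe set, dnah9 lay within the range of artificial-sequence Tag controls on 3 of the 4 arrays and the other 8 were tested. All 8 were higher in the morphants, 7 of them past the threshold. Leukocyte markers had a median difference of 0.010 over 9 genes. Several were bright, with mean signals of 14.16 for cpa5 and 14.05 for lyz, where the brightest multiciliated marker, tekt1, had 10.96. The share of each cell type among the sorted cells was not tested.

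Muscle genes were present and bright in these sorted cells, and most were lower in the morphants, but no member passed the test. Of the 59 tested, 48 had values below 0 and 11 above, with a median of −0.42, against a median of −0.017 over all probe sets tested. Calls numbered 0 of 59 members in limma (smallest adjusted p = 0.0647), where 2.61% of all probe sets tested were called. Of those 304 calls, 290 were higher in the morphants and 14 lower, so few probe sets of any kind were called lower. At unadjusted p under 0.05, 14 members were lower and 1 was higher, where 6.10% and 11.6% of all probe sets were. Both morphant arrays lay below both control arrays for 26 members (44.1%), which 24.7% of all probe sets did, and above them for 2, which 25.1% did. The median depended on single arrays: it was −0.23 without control replicate 1 and −0.17 without morphant replicate 2. In sorted cells measured in bulk, fewer muscle cells and less muscle RNA per cell cannot be told apart.

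**Figure D1:**
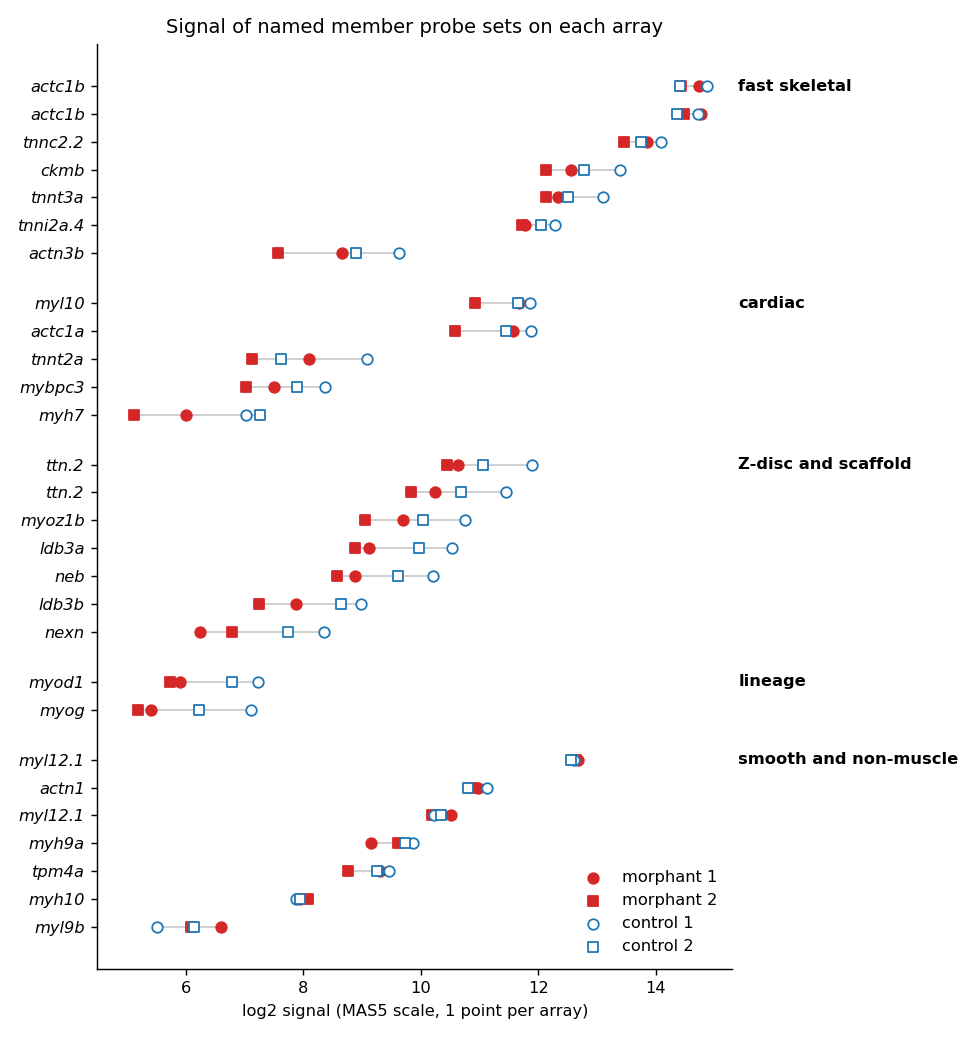
Log2 signal (x axis, scale as deposited) of selected member probe sets on each of the 4 arrays, with filled red symbols for the morphants and open blue symbols for the controls (circle, replicate 1, and square, replicate 2). Only the probe sets of smallest p or highest signal in each role are drawn. The slow skeletal probe set and those placed in no role are left out. Groups do not overlap for the Z-disc and scaffold genes and for myod1 and myog, while the smooth and non-muscle genes mostly overlap.

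The clearest separation lay in the Z-disc and scaffold genes. All 7 tested probe sets of this role, for 6 genes, were lower on both morphant arrays than on both control arrays, which 24.7% of all probe sets were. Their median difference was −1.18, a morphant to control ratio of 0.44. Ldb3a, a PDZ and LIM protein that binds alpha-actinin at the Z-disc, had 9.12 and 8.88 on the morphant arrays and 10.53 and 9.98 on the control arrays. Its difference was −1.26 ± 0.24 (SE, adjusted p = 0.0744). The group difference exceeded the gap within either pair of replicates, as it did for 36.9% of all probe sets tested. Its paralog ldb3b had 7.88 and 7.24 in the morphants and 8.98 and 8.64 in the controls (−1.25 ± 0.27, adjusted p = 0.0971). Nexn, nexilin, an actin-binding protein of the Z-disc, showed the largest difference of the role, with 6.25 and 6.79 in the morphants against 8.36 and 7.73 in the controls (−1.53 ± 0.30, adjusted p = 0.0757). It was the only one of the 7 with morphant replicate 1 below replicate 2.

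Nebulin and titin, the giant scaffold proteins, gave similar values. Neb had 8.88 and 8.57 in the morphants and 10.21 and 9.61 in the controls (−1.18 ± 0.26, adjusted p = 0.0984). Of the brighter ttn.2 probe sets, the first had 10.63 and 10.44 in the morphants and 11.90 and 11.05 in the controls (−0.94 ± 0.31). The second had 10.24 and 9.84 in the morphants and 11.45 and 10.68 in the controls (−1.02 ± 0.31). Both therefore pointed the same way by about the same amount, and their control arrays lay further apart than their morphant arrays. The other ttn.2 probe sets were under the filter, with mean signals of 5.01 and 3.05 and differences of −0.61 and −2.19. The dimmer of these was within the Tag range on 3 arrays. Myoz1b, a myozenin that links alpha-actinin, calcineurin and filamin at the Z-disc, had 9.70 and 9.05 in the morphants and 10.75 and 10.04 in the controls (−1.02 ± 0.34, adjusted p = 0.212). Actn2b, an alpha-actinin, was dim at 4.17 and 4.13 in the morphants and 5.41 and 4.46 in the controls, and was not tested. Without each array in turn, the median of the 7 tested probe sets ran from −0.89 to −1.42, so none moved it by over 1.5 times. With a variance prior that follows signal intensity, limma called ldb3a, ldb3b, nexn and neb (adjusted p of 0.0110, 0.0305, 0.0270 and 0.0209 in that order) and not the titin or myoz1b probe sets. That setting called 586 of all 11626 probe sets tested, 103 of them lower, against 304 in the main fit, 14 of them lower.

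Among the myogenic factors, myod1 and myog were lower and myf5 and myf6 were at background. Myod1, the determination factor, had 5.91 and 5.73 on the morphant arrays and 7.23 and 6.79 on the control arrays. Its difference was −1.19 ± 0.22 (SE) and its adjusted p of 0.0647 the smallest among the members. Myog, which acts later in differentiation, had 5.41 and 5.20 in the morphants and 7.12 and 6.23 in the controls (−1.37 ± 0.32, adjusted p = 0.114). The groups of both genes were separate and lower in the morphants, which 24.7% of all probe sets were. For both genes the control arrays spread more than the morphant arrays. On the linear scale the 2 probe sets together summed to 103 and 89.8 in the morphants and 289 and 186 in the controls, so these transcripts gave little signal in either group. With 64 added to the linear signals the median of the pair was −0.69 in place of −1.28. Myf5 had 1.01 and 3.10 in the morphants and 3.57 and 3.30 in the controls, and the 2 myf6 probe sets had means of 2.87 and 1.23. These 3 lay within the Tag range on all 4 arrays. No smyd1 probe set matched the rule.

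Fast skeletal genes gave the brightest probe sets of the members and a median closer to 0. Of 24 tested probe sets for 21 genes, 22 lay below 0, with a median of −0.38 (ratio 0.77). Groups were separate for 10, all lower in the morphants, which 24.7% of all probe sets were. At unadjusted p under 0.05, 2 fast probe sets were lower, where 6.10% of all probe sets were, and 0 higher. The control arrays themselves differed by a median of 0.41 over the fast probe sets, and the morphant arrays by 0.42, so the group difference was of the size of the replicate gaps. Its median was −0.15 without control replicate 1 and −0.16 without morphant replicate 2.

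Several bright fast members of the thin filament, the light chains and the parvalbumins follow, and actc1b is described after them. Tnnc2.2, fast troponin C, the calcium sensor, had 13.85 and 13.46 in the morphants and 14.08 and 13.75 in the controls (−0.27 ± 0.22, adjusted p = 0.603). Mylz3, a fast light chain, had 13.39 and 12.82 in the morphants and 13.89 and 13.48 in the controls (−0.58 ± 0.27). The groups overlapped for tnnc2.2 and not for mylz3. The 2 probe sets of mylpfa, the fast regulatory light chain, gave −0.40 and −0.27. Troponin T members tnnt3a and tnnt3b, which tie troponin to tropomyosin, gave −0.56 ± 0.25 and −0.36 ± 0.24. Pvalb1 and pvalb2, parvalbumins that buffer calcium to speed relaxation, gave −0.22 ± 0.19 and −0.10 ± 0.18. Creatine kinases, which regenerate ATP for contraction, lay lower. Ckmb had 12.55 and 12.13 in the morphants and 13.39 and 12.78 in the controls (−0.75 ± 0.28, adjusted p = 0.256), and ckma gave −0.66 ± 0.33. The actinin of fast fibres, actn3b, had the largest fast difference, with 8.67 and 7.58 in the morphants and 9.62 and 8.90 in the controls (−1.14 ± 0.43, adjusted p = 0.266). Mybpc2b, fast myosin binding protein C, which sits on the thick filament, gave −0.62 ± 0.33 with overlapping groups. The one tested fast heavy chain probe set, for myhz1.3, had 10.28 and 9.80 in the morphants and 10.52 and 9.69 in the controls (−0.060 ± 0.33). A further 3 probe sets carry several symbols, at least one of them of the muscle stems, and are neither named nor counted.

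Troponin I, the inhibitory subunit, is encoded by a tandem set of close fast paralogs, and the probe sets named for them differed. For tnni2a.4 the brighter probe set, at a mean of 13.76, gave −0.23 ± 0.23 with overlapping groups. The dimmer, at 11.95, had 11.77 and 11.72 in the morphants and 12.28 and 12.04 in the controls (−0.42 ± 0.17, adjusted p = 0.309). Tnni2b.1 gave −0.73 ± 0.49, tnni2a.2 −0.36 ± 0.16 and tnni2a.3 0.12 ± 0.30. Cross-hybridisation between such copies was not tested, so the values of single paralogs in the actin, troponin I and parvalbumin families are uncertain.

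Actc1b, a sarcomeric alpha-actin and one of the brightest transcripts on the arrays, lay near 0. One tested probe set had 14.73 and 14.42 in the morphants against 14.87 and 14.42 in the controls (−0.071 ± 0.23). The other had 14.76 and 14.48 in the morphants against 14.71 and 14.36 in the controls (0.082 ± 0.21). Their signs differed from each other, and each turned under other settings. Among the control probe sets for the same transcript, not tested, the 3′ one had 14.79 and 14.52 in the morphants and 14.76 and 14.35 in the controls. The 5′ one had 12.41 and 11.13 in the morphants and 12.23 and 11.89 in the controls, so morphant replicate 2 stood lowest at the 5′ end and not at the 3′ end. The 3′ minus 5′ signal of actc1b was 2.38 and 3.39 on the morphant arrays and 2.54 and 2.47 on the control arrays. For the gapdh control probe sets it was 0.36 and 0.94 on the morphant arrays and 1.02 and 0.88 on the control arrays, which does not set morphant replicate 2 apart. That array had the dimmest poly-A spike-in controls, with means of 9.53 and 8.73 in the morphants and 9.93 and 9.92 in the controls. The part of RNA amplification in the muscle values was not tested. A second skeletal actin, acta1a, had 11.54 and 11.24 in the morphants and 12.16 and 11.68 in the controls (−0.53 ± 0.23), with separate groups.

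Cardiac isoforms had a lower median than fast ones and scattered widely between replicates, and the difference between these roles was not tested. Of 6 tested probe sets all lay below 0, with a median of −0.81. Groups were separate for 2, both lower, which 24.7% of all probe sets were. Myh7, a myosin heavy chain of heart muscle, had 6.01 and 5.12 in the morphants and 7.02 and 7.26 in the controls (−1.57 ± 0.32, adjusted p = 0.0856). Mybpc3, cardiac myosin binding protein C, had 7.49 and 7.02 in the morphants and 8.38 and 7.89 in the controls (−0.88 ± 0.26, adjusted p = 0.182). These were the separate pair. With the intensity-dependent prior limma called myh7 (adjusted p = 0.0429), as it did 586 of all 11626 probe sets tested, 103 of them lower. Myl7, the cardiac regulatory light chain used as a heart marker in zebrafish, had 7.78 and 4.67 in the morphants and 8.79 and 6.48 in the controls (−1.41 ± 1.2, adjusted p = 0.606). Tnnt2a, cardiac troponin T, had 8.10 and 7.13 in the morphants and 9.09 and 7.62 in the controls (−0.74 ± 0.56). In both, replicate 1 lay above replicate 2 within each group and morphant replicate 1 lay above control replicate 2. The untested tnnc1a, cardiac troponin C, showed that order too, with 5.47 and 3.06 in the morphants and 5.84 and 4.15 in the controls. So did cmlc1, a cardiac light chain outside the rule, with 7.71 and 5.82 in the morphants and 9.61 and 6.36 in the controls. Actc1a and myl10, placed here by their symbols, were brighter and gave −0.59 ± 0.36 and −0.46 ± 0.29, and without myl10, whose fibre type is uncertain, the cardiac median was −0.88 over 5. Of the cardiac regulators, nkx2.5 and tbx5a were within the Tag range on all 4 arrays, gata4 on 3 and tbx20 on 1. Hand2 was above it on each array, with 6.26 and 5.56 in the morphants and 6.39 and 6.37 in the controls (−0.47 ± 0.27, adjusted p = 0.440), so its groups were separate. The cardiac median moved to −0.37 when control replicate 1 was left out, to −1.29 when control replicate 2 was, and to −0.18 when morphant replicate 2 was.

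Roles assigned by symbol gave a single slow skeletal member, the tropomyosin tpm3. Whether its signal came from slow fibres in these sorted cells was not tested. It had 11.88 and 11.69 in the morphants and 11.90 and 11.80 in the controls (−0.063 ± 0.17, adjusted p = 0.895), and the groups overlapped. Myl10, counted above as cardiac by its symbol, may be a slow skeletal light chain in zebrafish, and with it as a second slow probe set their median was −0.26. Outside the rule, smyhc1, a slow myosin heavy chain, had 10.86 and 10.50 in the morphants and 11.28 and 11.17 in the controls (−0.54 ± 0.19, adjusted p = 0.240). Whether slow and fast fibres differ in response cannot be read from so few members.

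Members that the symbol rule placed in no role lay on both sides of 0. They include myl1, the alkali light chain of fast muscle, and with it counted as fast the fast median was −0.40 over 25 probe sets. Myl13 and myl1, myosin light chains, had differences of −0.72 ± 0.26 and −0.94 ± 0.51, and myl1 had 10.83 and 9.43 in the morphants and 11.43 and 10.70 in the controls. Pvalb6, a parvalbumin, was the one member higher at unadjusted p under 0.05, with 7.68 and 7.60 in the morphants and 7.11 and 5.49 in the controls (1.34 ± 0.52, adjusted p = 0.276). The gap between its control arrays exceeded that difference. With 1 array left out, the pvalb6 difference ran from 0.53 (without control replicate 2) to 2.15 (without control replicate 1), so its size rested on the control arrays. Pvalb5 had 4.82 and 4.94 in the morphants against 5.04 and 8.85 in the controls (−2.07 ± 1.19, adjusted p = 0.442), so its value rested on control replicate 2. Pvalb7, pvalb8 and pvalb9 lay between −0.031 and 0.17. The mitochondrial creatine kinases ckmt1 and ckmt2a gave −0.42 ± 0.22 and −0.71 ± 0.30.

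Isoforms that the symbol rule placed with smooth muscle or with cells other than muscle stayed near 0 as a group. Over 10 probe sets for 8 genes the median was 0.027, and 4 lay below 0 and 6 above. Myl12.1, a regulatory light chain of non-muscle myosin, had 12.67 and 12.64 in the morphants and 12.61 and 12.56 in the controls (0.070 ± 0.16). A second probe set of it gave 0.061 and another −0.056. The sign of the values above 0 turned under median centring. Actn1, the actinin of cell adhesions, gave −0.038 ± 0.19 and the non-muscle myosin heavy chain myh10 0.097 ± 0.16. Myh9a, another such heavy chain, had 9.16 and 9.62 in the morphants and 9.86 and 9.73 in the controls (−0.41 ± 0.22). Tpm4a and myl9b, placed here by symbol alone, gave −0.33 ± 0.24 and 0.52 ± 0.30. Tpm4a had 9.30 and 8.77 in the morphants and 9.46 and 9.26 in the controls, the array order of the cardiac tnnt2a and myl7 and of several fast members. Of 3 tested smooth muscle markers outside the rule, 2 were lower with separate groups, which 24.7% of all probe sets were. Acta2, smooth muscle actin, had 8.86 and 7.18 in the morphants and 9.04 and 9.87 in the controls (−1.44 ± 0.60). Tagln, a smooth muscle actin-binding protein, had 9.11 and 8.27 in the morphants and 9.49 and 10.58 in the controls (−1.35 ± 0.45). The third, smtnb, had 6.47 and 6.73 in the morphants and 6.09 and 7.01 in the controls (0.053 ± 0.33), and the dim, untested desmb overlapped too. Acta2 and tagln were highest on control replicate 2, which was not the array on which the skeletal genes were highest.

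**Figure D2:**
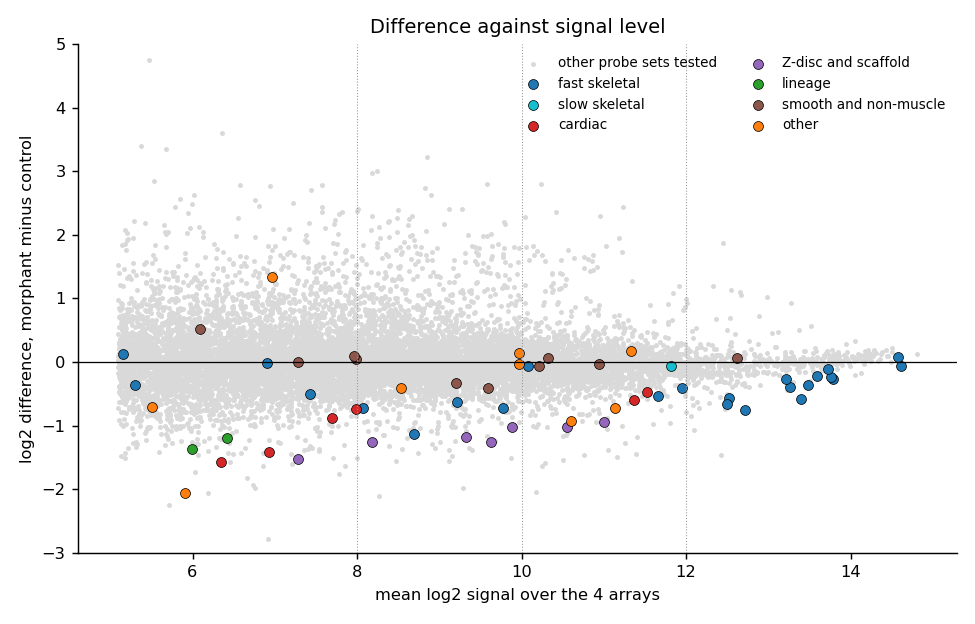
Log2 difference, morphant minus control (y axis), against the mean log2 signal over the 4 arrays (x axis) for every probe set tested, with members coloured by role and dotted lines at signals of 8, 10 and 12. From a signal of 8 upward the striated members approach 0 as they become brighter, and the spread of the other probe sets narrows too.

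The size of the difference varied with signal level. For the fast, slow, cardiac, Z-disc and lineage probe sets together (40 tested, median −0.59), the median was −0.88 at a mean signal under 8 (11 probe sets), −1.08 from 8 to under 10 (8), −0.50 from 10 to under 12 (8) and −0.27 at 12 and over (13). As ratios of morphant to control these were 0.54, 0.47, 0.71 and 0.83. Other probe sets had medians of 0.012, −0.022, −0.051 and −0.0081 in the same ranges, without that trend. Level overlapped with role, as described below, and the cause of the trend was not tested. Difference and level correlated at Pearson r = 0.50 and Spearman rho = 0.51 across the 40 probe sets, and at r = 0.23 and rho = 0.23 across all 59 members. Within the 40, r and rho were both 0.75 across the 29 at a signal of 8 and over, but −0.25 and −0.18 across the 11 below 8. Only the correlation across all 59 members was planned beforehand. Pooling the 40 and splitting them at 8 for correlations were not. These correlations describe probe sets that share the same 4 arrays and are not replicates. For all 59 members, smooth and other roles included, the medians were −0.60, −0.73, −0.44 and −0.27. From 8 to under 10 this median was −0.34 and −0.33 when control replicate 1 or morphant replicate 2 was left out, and −1.24 without morphant replicate 1. At 12 and over it was −0.087, −0.11 and −0.45 in the same cases, nearer 0 in each than from 8 to under 10. The brightest range was not always nearest 0. Without morphant replicate 2 the median was −0.15 under 8 and −0.097 from 10 to under 12. Without control replicate 2 it was −0.39 under 8 and −0.44 at 12 and over. Grouping all members by the control arrays alone gave −0.36, −0.73, −0.56 and −0.27.

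**Figure D3:**
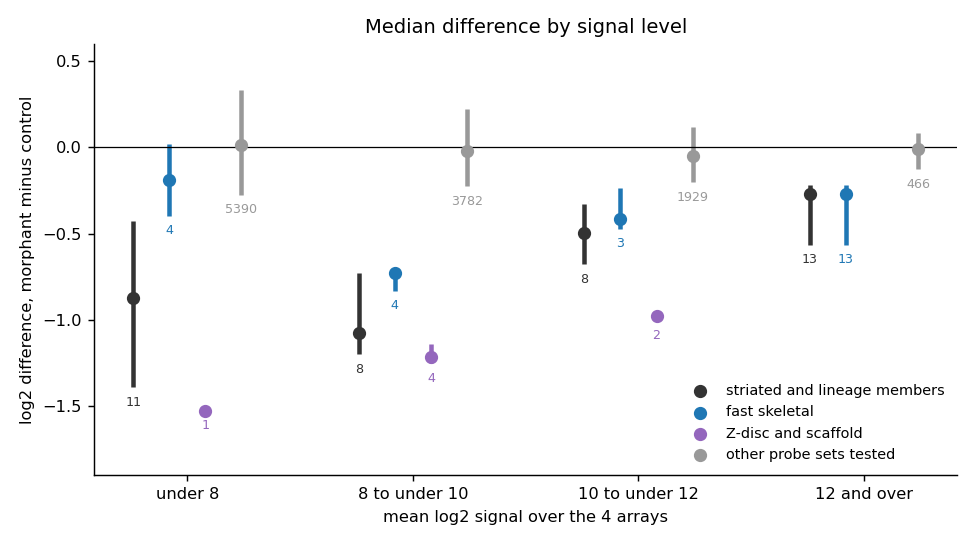
Median log2 difference, morphant minus control (points), with interquartile ranges (bars) in 4 ranges of mean log2 signal, and the number of probe sets under each bar. Striated and lineage members reach their lowest median from 8 to under 10 (−1.08) and are nearest 0 at 12 and over (−0.27), and Z-disc and scaffold probe sets lie below fast ones in each range that holds both.

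Level and role overlapped in part. The 13 striated probe sets at 12 and over were all fast skeletal, and no Z-disc or scaffold probe set reached that signal. At 8 to under 10, the 4 Z-disc and scaffold probe sets had a median of −1.22 and the 4 fast ones −0.73. From 10 to under 12, the 2 titin probe sets had −0.98 and the 3 fast ones −0.42. Within 1 range of signal the scaffold genes thus had the lower values, and fast probe sets at 12 and over had −0.27. Below 8, the 4 fast probe sets, for pvalb3, tpm1, tnni2a.2 and tnni2a.3, had −0.19. The cardiac probe sets had −1.14 below 8 (4 probe sets) and −0.53 from 10 to under 12 (2), the latter closer to the fast value of that range. Over the 24 fast probe sets difference and level correlated only weakly (r = 0.11 and rho = 0.28). No test was made of these subdivisions, whose sizes are 1 to 13 probe sets. The spread of differences also narrowed with level among probe sets that are not members: their interquartile range was 0.60 under 8, 0.45 from 8, 0.32 from 10 and 0.21 from 12. Control replicate 1 minus control replicate 2 had medians over the striated members of 0.48, 0.65, 0.45 and 0.39 in the same order. Over the other probe sets these medians were 0.019, −0.021, −0.0063 and 0.12. Such a signed gap is a different measure from the interquartile range, so the 2 are not compared. The highest values on the arrays were 15.28 and 15.23 in the morphants and 15.31 and 14.99 in the controls, and whether bright probe sets were near saturation was not tested. On the linear scale, summed signal of the 24 fast probe sets had a morphant to control ratio of 0.83, that of the Z-disc and scaffold probe sets 0.47 and that of the smooth and non-muscle ones 1.00.

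**Figure D4:**
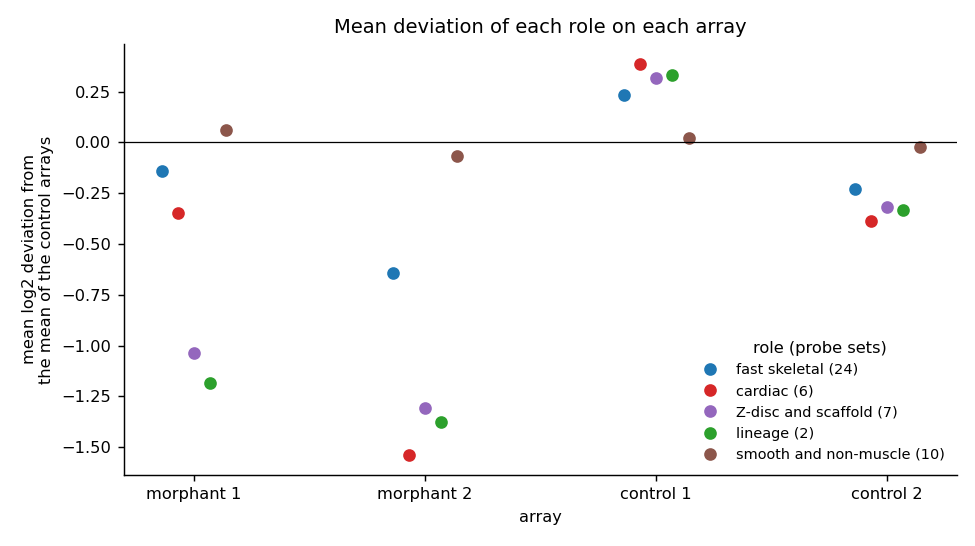
Mean log2 deviation from the mean of the control arrays (y axis) on each array (x axis), 1 point per role, with the number of probe sets in the legend. Z-disc, scaffold and lineage genes sit at −1.04 or lower on both morphant arrays, fast genes on morphant replicate 1 lie above those on control replicate 2, and smooth and non-muscle genes stay near 0 on each array.

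The members also shared an order over the arrays that the group labels do not explain alone. Among the 40 striated and lineage probe sets, 36 were highest on control replicate 1 and 35 lowest on morphant replicate 2, which 25.3% and 27.2% of all probe sets were. In 37 of the 40 replicate 1 lay above replicate 2 in both groups, as it did for 28.0% of all probe sets. Of the other probe sets at a signal of 12 and over, 45.9% were highest on control replicate 1. Replicate 1 lay above replicate 2 in both groups for 49.8% of them, and for 13 of the 13 striated ones at that level. Bright probe sets outside the members thus had these traits, the high control replicate 1 and the replicate order, more often than probe sets in general. Lowest on morphant replicate 2 were 24.0% of them, no more than the 27.2% of all probe sets. Over the 40, mean deviations from the control mean were −0.37 and −0.92 on the morphant arrays and 0.27 and −0.27 on the control arrays. Fast genes gave −0.14 and −0.64 in the morphants and 0.23 and −0.23 in the controls, so for them morphant replicate 1 was not below control replicate 2. Z-disc and scaffold genes gave −1.04 and −1.31 in the morphants and 0.32 and −0.32 in the controls, with no overlap. The full order of control 1, control 2, morphant 1 and morphant 2 from high to low was held by 18 of the 40, 6 of the 7 Z-disc and scaffold probe sets among them, and by 6.77% of all probe sets. Of the other probe sets at a signal of 12 and over, 7.30% held it.

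Other muscle genes, taken from lists outside the rule, had 0 calls in limma as well. The filament, Z-disc and costamere list, with a probe set for 21 of 56 genes, had 18 genes tested, all below 0, with a median of −0.99, 15 with separate groups and 12 at unadjusted p under 0.05, where 24.7% and 6.10% of all probe sets were lower by these measures. Among them tmod4, which caps thin filaments, had 9.81 and 9.18 in the morphants and 11.49 and 10.68 in the controls (−1.59 ± 0.35, adjusted p = 0.102). Hsp90aa1.1, a chaperone that folds myosin in zebrafish muscle, had 9.35 and 8.96 in the morphants and 11.67 and 10.71 in the controls (−2.04 ± 0.36, adjusted p = 0.0607). Myoc had −1.23 ± 0.25, trim63a, a muscle ubiquitin ligase, −1.30 ± 0.28, and pdlim7 and flncb, the brightest, −0.78 ± 0.23 and −0.49 ± 0.19. Of 22 listed excitation-contraction coupling genes, which release and recover calcium, 6 had a probe set. All 6 were tested and were lower with separate groups, which 24.7% of all probe sets were. Their median was −0.93, and 4 were lower at unadjusted p under 0.05, where 6.10% of all probe sets were. Srl, sarcalumenin, had 9.02 and 8.39 in the morphants and 10.57 and 9.62 in the controls (−1.39 ± 0.38). The calcium pump atp2a1 had 11.69 and 11.59 in the morphants and 12.76 and 12.21 in the controls (−0.85 ± 0.23), and atp2a1l gave −1.15 ± 0.37. The medians of these lists lay between those of the cardiac and the scaffold members.

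Energy metabolism, the synapse and myogenic regulation were more mixed. Of 13 energy genes 10 lay below 0 (median −0.23). At unadjusted p under 0.05 there were 6 lower and 2 higher, where 6.10% and 11.6% of all probe sets were. Pgam2, the muscle phosphoglycerate mutase, had 10.48 and 10.23 in the morphants and 12.02 and 11.47 in the controls (−1.39 ± 0.24, adjusted p = 0.0618), and pfkma, a phosphofructokinase, had −1.26 ± 0.26. Pygmb, a glycogen phosphorylase, had 10.16 and 10.22 in the morphants and 9.45 and 9.17 in the controls (0.88 ± 0.18, adjusted p = 0.0856). Mb, myoglobin, had 7.55 and 6.97 in the morphants and 6.61 and 5.78 in the controls (1.06 ± 0.35, adjusted p = 0.213). The bright eno3 and ak1 gave −0.041 ± 0.18 and −0.090 ± 0.18. Neuromuscular junction genes had a median of −0.37 over 4 tested, with 0 at unadjusted p under 0.05. Groups were separate for 1, lower in the morphants, which 24.7% of all probe sets were. The 4 were chrna1 (−0.57 ± 0.47), chrne (−0.42 ± 0.25) and musk (−0.32 ± 0.21) below 0 and ache (0.30 ± 0.34) above. Myogenic regulators and fusion genes had a median of −0.21 over 13, with 2 lower and 2 higher at unadjusted p under 0.05 and the count of higher ones near the 11.6% of all probe sets. Tcf15, a factor of somite formation, had 7.14 and 6.20 in the morphants and 5.38 and 5.63 in the controls (1.16 ± 0.34, adjusted p = 0.174), the cell adhesion gene jam3b had −0.60 ± 0.19, and celf1 0.50 ± 0.18. Mef2ca, a partner of the myogenic factors, gave −0.88 ± 0.32, and the brightest of the list, id3, −0.13 ± 0.18. Notochord, cartilage and connective tissue markers had a median of −0.31 over 8 tested, of which 6 lay below 0. Col1a1a, the only one of them with separate groups, gave −0.94 ± 0.18. Above 0 lay col9a1b (0.28 ± 0.33) and twist1a (0.39 ± 0.29).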

How the data were processed

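Total RNA (100 ng) was amplified, biotin-labelled and hybridised to a 1-colour Affymetrix array. The authors deposited log2 signals per probe set. Per the submitters' processing notes they used MAS5, with no version recorded. The array scaling was read from the values: the 2% trimmed mean of linear signal was between 499.7 and 499.8 on each array. The fit left out 115 control probe sets and, by mean signal over all arrays, the dimmest 25% of the rest. It used limma 3.58.1 under R 4.3.3 (1 group term, no intensity trend) and p-values adjusted over all probe sets tested. The fit was tested on simulated data. Tag controls are 17 probe sets for artificial sequences, whose brightest signal bounds background on each array. Symbols came from the array annotation, and all 74 members had a RefSeq entry with the same symbol. Roles follow the gene symbol. Genes given with values are those of smallest p and highest signal in each role and list, all lineage factors, and genes with several probe sets; values of some further members are given for completeness. Members, roles and lists were chosen with earlier results of these data known. Alternatives covered pseudocounts, filters, scaling, the variance prior, a replicate block and each array left out. No sequence was used here.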

Additional observations from a re-analysis of the deposited data

How the results depend on the processing

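The number of arrays limits precision. The 304 calls over all probe sets became 582 with 64 added to linear signals, 586 with an intensity trend, 0 without the filter (1380 higher and 647 lower at unadjusted p under 0.05), and 0 to 54 with 1 array left out. Members called were 2 with 16 added, 5 with 64 added, 5 with the trend, 4 with the lowest 50% left out, all lower, and 0 to 2 with 1 array left out, which leaves its group 1 array assumed to vary like the others. With all 4 arrays the called members were ldb3a and nexn in each of these settings, ldb3b and neb in all but the first, and myh7 with 64 added and the trend. Over all 11626 probe sets tested, 440 were called with 16 added, and 38 of these were lower in the morphants. In either direction together, the share of the 59 members was thus no larger there. With 64 added 582 were called, 82 of them lower, and with the trend 586, 103 of them lower. With the lowest 50% left out, 445 of 7751 were called, 63 of them lower, where 48 members were tested. The pair called without control replicate 1 were pvalb6, higher, and pvalb5, lower. Replicate numbers were not known to pair the arrays: replicate 1 deviations correlated between groups at r = 0.020 over all probe sets and 0.43 over members. With the replicate block 207 probe sets were called in all and 0 members. At unadjusted p under 0.05, 27 of the 59 members were lower with that block, as were 756 of all 11626 probe sets. With 64 added, the median was −0.33 for members under a signal of 8 and −0.69 for the lineage genes. With 1 array left out, the median of members ran from −0.75 to −0.15 under 8, −1.24 to −0.33 from 8, and −0.56 to −0.097 from 10. Signs turned only for values near 0, in 7 of the 35 named probe sets. With 1 array left out, tpm3 ran from −0.16 to 0.032, actn1 from −0.20 to 0.12, pvalb8 from −0.35 to 0.69, the myl12.1 probe set with 0.061 from −0.099 to 0.22, and the actc1b probe sets from −0.30 to 0.16 and from −0.091 to 0.25. Median centring gave −0.012 and −0.0024 for probe sets of myl12.1, and quantile scaling −0.020 for the second actc1b probe set. Role changes chosen after seeing the data gave a slow median of −0.26 with myl10 counted as slow. The causes were not tested.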
